A study of Mus musculus with 9 samples.

Results

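Complex I of the respiratory chain is built from many nuclear gene products, and 46 of the 13179 genes in the deposited table carry the Nduf names given to its subunits and assembly factors. They were chosen by name alone, as every gene symbol that starts with Nduf and a further lower-case letter, leaving out symbols marked as pseudogenes. All 46 passed the filter on low values. They comprised 7 core subunits of the matrix arm, 9 accessory subunits of the matrix arm, 19 accessory subunits of the membrane arm, the acyl carrier protein Ndufab1, 8 assembly factors, and the pair Ndufa4 and Ndufa4l2. The role groups are textbook assignments. All 46 are called complex I genes here, although Ndufa4 is now counted with complex IV. The 7 mitochondrially encoded subunits and 13 other assembly factors in the table are not among the 46.

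The RNA came from the gastrocnemius, a mostly fast-twitch muscle of the calf, of mice kept on high-fat food for 6 weeks. The p38α/γ KO group (genotype p38alpha/gammaMCK-KO), the p38α KO group (p38alphaMCK-KO) and the control group had 3 libraries each, and all 3 groups had the same diet. Mapk14 encodes p38α and Mapk12 encodes p38γ, which are kinases that respond to cell stress. MCK is the usual short name of muscle creatine kinase, whose promoter is used to direct Cre recombinase to striated muscle, so that other cells of the tissue keep the gene in such lines. The labels used here give no age, no sex, no description of the alleles and do not state whether each sample was a separate animal. The p-values below therefore refer to the spread among these libraries, which may be technical.

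Complex I oxidises NADH, hands the electrons to ubiquinone and pumps protons across the inner mitochondrial membrane. Its matrix arm carries the flavin and the iron-sulphur clusters, and its membrane arm carries the proton pumps, whose core subunits are encoded in mitochondrial DNA. Nuclear accessory subunits surround both arms, and assembly factors join the modules and do not stay in the finished enzyme. In muscle its abundance follows mitochondrial content, which is higher in oxidative than in fast glycolytic fibres.

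Inferred depth was 23.8 to 27.9 M reads per library. Mapk14 measured 54.7, 37.0 and 42.7 in the p38α/γ KO, 43.8, 45.5 and 40.3 in the p38α KO and 143, 149 and 157 in the controls, and Mapk12 measured 31.2, 35.5 and 32.8 in the p38α/γ KO, 96.5, 103 and 105 in the p38α KO and 139.9, 138 and 152 in the controls. Mapk14 was called lower than control in both knockouts. Mapk12 was called lower in the p38α/γ KO, and also in the p38α KO (log2 −0.49, adjusted p = 0.00601), whose label does not name p38γ. Fibre genes were abundant in all 9 libraries, and Acta1, the main actin of skeletal muscle fibres, measured 23500.4, 25291 and 24543 in the p38α/γ KO, 20832, 21987 and 20034 in the p38α KO and 30601, 30118 and 34257 in the controls. Every knockout library was below every control for Acta1, which was called lower in the p38α KO (log2 −0.59, adjusted p = 0.027) and did not pass in the p38α/γ KO (adjusted p = 0.0957). Library 1 of the p38α KO stood apart, with a correlation of 0.961 to p38α KO 3, against 0.976 to 0.993 for the other pairs within groups. Values are the authors' normalised signal, and each log2 difference is of value + 1, from a limma fit over all 9 libraries with Benjamini-Hochberg adjustment over 13137 genes and a threshold of 0.05.

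The bases just upstream of complex I genes show which letters of known mitochondrial regulators they hold. Stretches before the RefSeq starts (GRCm38.p6) are given for Ndufb3, with the largest rise in the p38α/γ KO, for Ndufa1, which also rose, and for Ndufaf4 and Ndufaf5, which fell; in these genes a single start was listed and no annotated exon lay in the stretch. They lie at chr1:58586147-58586383 on the plus strand, chrX:37191239-37191488 on the minus strand, chr4:24897833-24898082 on the plus strand and chr2:140170396-140170645 on the plus strand. Each is written in the direction of the gene, and capitals mark letters that matched the NRF1 search described after them.
Ndufb3: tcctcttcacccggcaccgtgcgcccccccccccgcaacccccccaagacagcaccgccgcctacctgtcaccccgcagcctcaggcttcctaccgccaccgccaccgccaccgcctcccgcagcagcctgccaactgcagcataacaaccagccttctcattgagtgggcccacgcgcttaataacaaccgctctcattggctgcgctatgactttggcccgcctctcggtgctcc
Ndufa1: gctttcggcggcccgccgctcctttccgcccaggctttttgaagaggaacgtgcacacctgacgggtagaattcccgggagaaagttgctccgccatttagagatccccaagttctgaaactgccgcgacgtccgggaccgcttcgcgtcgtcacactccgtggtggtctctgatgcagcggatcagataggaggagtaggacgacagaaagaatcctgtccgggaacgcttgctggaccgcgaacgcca
Ndufaf4: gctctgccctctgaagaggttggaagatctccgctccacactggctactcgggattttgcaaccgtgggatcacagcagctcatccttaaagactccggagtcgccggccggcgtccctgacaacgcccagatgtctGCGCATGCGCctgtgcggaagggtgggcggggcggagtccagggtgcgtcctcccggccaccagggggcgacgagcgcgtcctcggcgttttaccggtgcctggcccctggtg
Ndufaf5: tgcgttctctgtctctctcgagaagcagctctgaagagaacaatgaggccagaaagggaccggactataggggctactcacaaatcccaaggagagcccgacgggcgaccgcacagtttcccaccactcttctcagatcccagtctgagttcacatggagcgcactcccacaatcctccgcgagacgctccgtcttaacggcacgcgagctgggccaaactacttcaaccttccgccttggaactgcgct
Of these 4, Ndufaf4 was the gene with NRF1 letters. RefSeq windows matched 40 of the 46 genes, with 42 windows, and the 250 bases before each start were searched on both strands. The NRF1 letters (GCGC, any 2 bases, then GCGC) were in 10 of the 42 windows (23.8%), against 4.98% of all 32851 windows and 9.99% of the windows of genes in the deposited table. The ETS letters CCGGAAG, read by the GABP factor, were in 5 of 42 (11.9%), against 6.91% of all windows and 12.8% of those of genes in the table. The ERR letters TCAAGGTCA and the YY1 letters AAGATGGCG were in 0 of the 42, and in 0.387% and 0.606% of all windows. Among windows of genes in the table the shares were 0.270% and 1.14%, so 0 of 42 does not set complex I genes apart. Windows and not genes are counted, so a gene with several windows can count several times. No window held both NRF1 and ETS letters. The median GC content was 58.2% in the complex I windows and 52.4% in all windows. The genes with NRF1 letters included Ndufa5 and Ndufa8, which were higher in the p38α/γ KO, and Ndufaf4, which was lower there. The others with these letters were Ndufa11, Ndufab1, Ndufb4, Ndufs5, Ndufs6 and Ndufv2, and none of them was called. These matches are a description of letters and not of bound sites.

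In the p38α/γ KO, 11 complex I genes were higher than control and 2 were lower, and 33 did not pass. The background was 11.2% of all tested genes higher and 14.4% lower, so the 23.9% of complex I genes called higher was above the background share, and the 4.35% called lower was below it. The 11 were all subunits, with log2 differences between 0.39 (Ndufs7) and 0.73 (Ndufb3), and the 2 were the assembly factors Ndufaf4 and Ndufaf5. The difference was positive for 41 of 46 genes, where 51.5% of all genes were positive, and the median was 0.27, against 0.02 over all genes tested. All 3 p38α/γ KO libraries lay above all 3 controls for 29 genes and below them for 2, where 26.4% and 28.6% of all genes did so. In whole muscle, fewer cells of a type and less RNA per cell cannot be told apart.

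**Figure D1:**
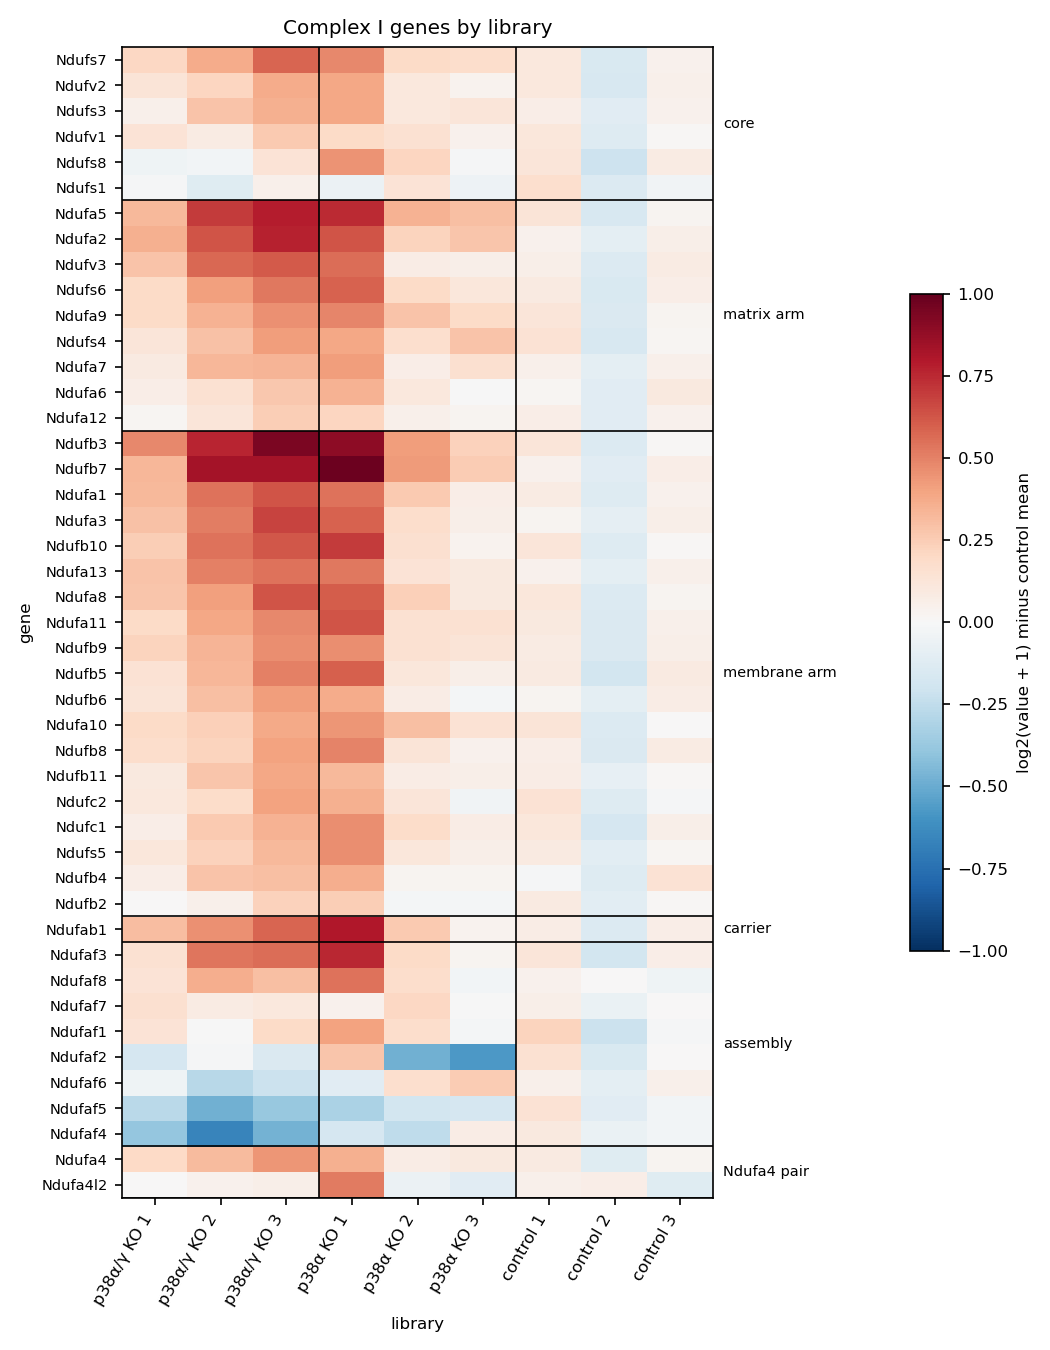
Log2(value + 1) of 45 complex I genes in each library, as the difference from that gene's control mean (colour, red higher and blue lower), with genes in rows by role and libraries in columns. Over all 46 genes, control 2 was lowest for 40, p38α KO 1 highest for 23 and p38α/γ KO 3 highest for 18.

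Among the core subunits, Ndufs7 rose in the p38α/γ KO. Ndufs7, which carries the last iron-sulphur cluster before quinone, measured 241, 270.3 and 313 in the p38α/γ KO, 291, 238 and 236 in the p38α KO and 224, 188 and 215 in the controls. The p38α/γ KO libraries did not overlap the controls (log2 0.39, SE 0.13, adjusted p = 0.0474).

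Ndufs1, Ndufs3, Ndufs8, Ndufv1 and Ndufv2 did not pass. Ndufs1, the largest core subunit with several iron-sulphur clusters, measured 439, 406 and 458 in the p38α/γ KO, 425, 486 and 427 in the p38α KO and 498, 403 and 432 in the controls, and the groups overlapped (log2 −0.03, 95% interval −0.26 to 0.20). Ndufs8, another iron-sulphur subunit, measured 108, 109 and 122 in the p38α/γ KO, 152, 129 and 110.4 in the p38α KO and 121, 96.3 and 118 in the controls, again with overlap (log2 0.02). These were the smallest differences of the core subunits described. Ndufv1, which binds NADH and the flavin, measured 378, 363 and 411 in the p38α/γ KO, 391, 380.2 and 353 in the p38α KO and 370.5, 313 and 346 in the controls (adjusted p = 0.211). Ndufv2, the iron-sulphur subunit beside it, measured 403, 428 and 477 in the p38α/γ KO, 482, 395 and 378 in the p38α KO and 396, 329.7 and 381 in the controls (adjusted p = 0.154). The p38α/γ KO libraries were above all controls for Ndufv2 but overlapped them for Ndufv1. Ndufs3, a core subunit of the quinone module, measured 281, 331 and 347 in the p38α/γ KO, 354, 291 and 295 in the p38α KO and 285, 250.2 and 279.8 in the controls, with p38α/γ KO 1 inside the control range (adjusted p = 0.149). For Ndufs3, 35.2% of its 51-base windows also occur in other genes.

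Of the 9 accessory subunits of the matrix arm, 3 rose in the p38α/γ KO (33.3%, against 11.2% of all genes) and the other 6 did not pass. Ndufa5, which sits on the quinone module, measured 161, 210.0 and 223 in the p38α/γ KO, 217, 165 and 159 in the p38α KO and 141, 116 and 131 in the controls (log2 0.60, SE 0.15, adjusted p = 0.0226). Ndufa2, a small subunit with a thioredoxin-like fold near the NADH site, measured 165, 199 and 219.8 in the p38α/γ KO, 199, 150.1 and 156 in the p38α KO and 132, 120.1 and 134 in the controls (log2 0.58, SE 0.13, adjusted p = 0.0156). For both genes every p38α/γ KO and every p38α KO library was above every control. Ndufv3, a small subunit at the NADH-binding tip, measured 120.0, 147 and 151 in the p38α/γ KO, 146, 104 and 103 in the p38α KO and 103, 89.5 and 104 in the controls (log2 0.49, SE 0.15, adjusted p = 0.0373). Here p38α KO 2 and 3 lay inside the control range and p38α KO 1 did not. Among the 6 that did not pass, log2 differences went from 0.13 (Ndufa12) to 0.37 (Ndufs6).

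The membrane arm held the 2 largest differences, and 6 of its 19 accessory subunits rose in the p38α/γ KO (31.6%, against 11.2% of all genes). Ndufb3, a subunit of the distal part of the membrane arm (chr1:58586384-58595964, GRCm38), measured 142, 173 and 195 in the p38α/γ KO, 189, 136 and 119 in the p38α KO and 111, 92.4 and 102 in the controls. It had the largest difference of the 46 (log2 0.73, SE 0.17, adjusted p = 0.0177). Ndufb7, a disulphide-bonded subunit on the intermembrane-space face, measured 134, 191 and 189.9 in the p38α/γ KO, 211, 143 and 127 in the p38α KO and 109.8, 98.4 and 112 in the controls. All knockout libraries were above all controls, and p38α KO 1 was the highest (log2 0.66, SE 0.19, adjusted p = 0.0327 for the p38α/γ KO).

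Ndufa1, a small membrane-anchored subunit, measured 103, 121 and 128 in the p38α/γ KO, 120.1, 98.8 and 86.4 in the p38α KO and 87.1, 75.2 and 85.0 in the controls (log2 0.50, adjusted p = 0.0244). Ndufa3, another small subunit of the membrane arm, measured 195, 227 and 255 in the p38α/γ KO, 239.9, 180.3 and 166 in the p38α KO and 163, 149 and 166 in the controls (log2 0.49, adjusted p = 0.0341). For both genes p38α KO 3 was inside the control range. Ndufa13, a membrane-spanning subunit also studied in cell death, measured 265, 307 and 317 in the p38α/γ KO, 312, 238 and 232 in the p38α KO and 224, 203 and 225 in the controls (log2 0.44, adjusted p = 0.0305). Ndufa8, which like Ndufb7 faces the intermembrane space, measured 194, 213 and 247 in the p38α/γ KO, 244, 189 and 171 in the p38α KO and 173, 145 and 163 in the controls (log2 0.44, adjusted p = 0.0468). The p38α/γ KO libraries did not overlap the controls for either gene. Tssk6 exons overlap 30.0% of the exon bases of Ndufa13, and the use of strand in counting is not given in the sources used here. The other 13 membrane arm subunits had log2 differences from 0.09 (Ndufb2) to 0.47 (Ndufb10), all positive. Ndufab1, the mitochondrial acyl carrier protein, was at log2 0.45 and did not pass (adjusted p = 0.0807).

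**Figure D2:**
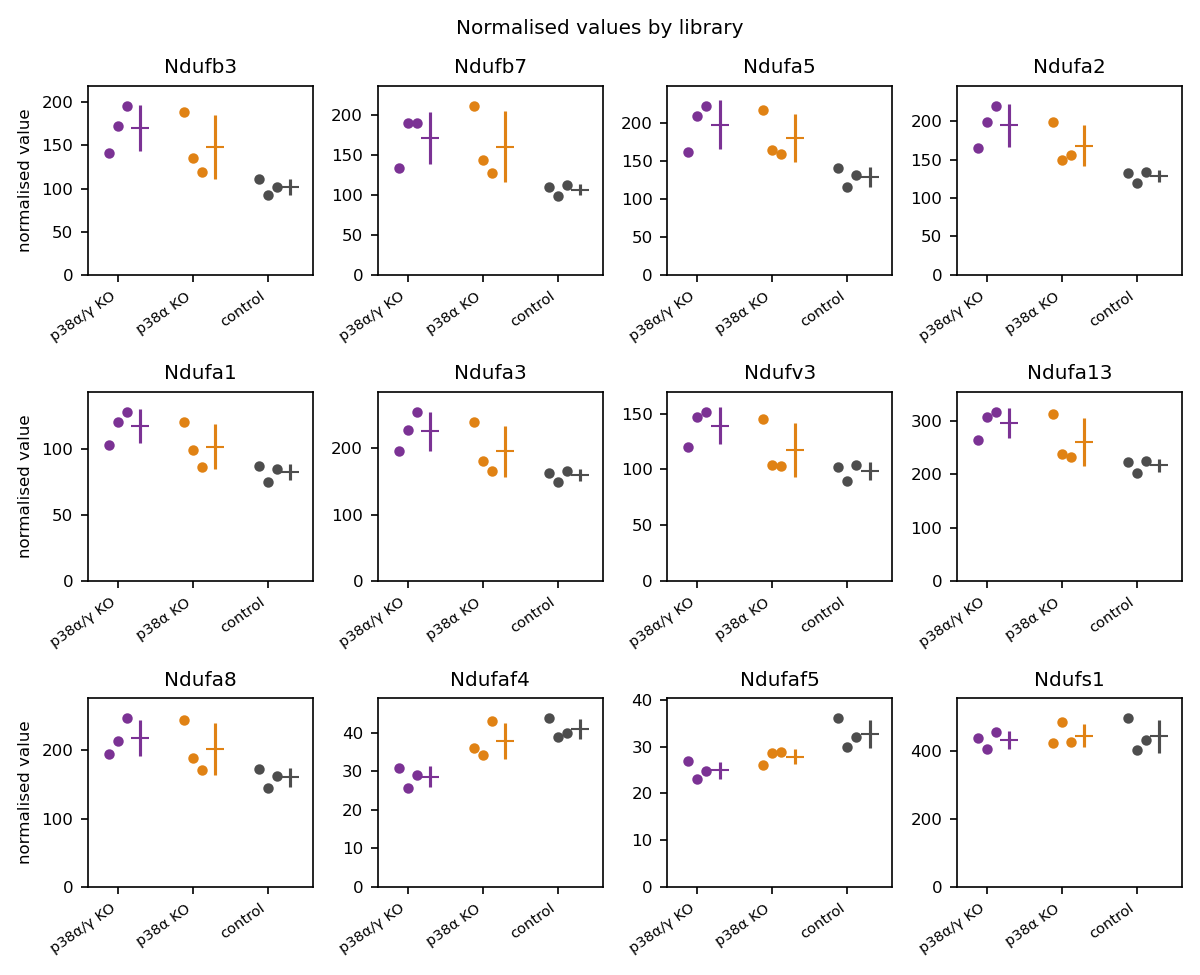
Normalised values of the 9 complex I genes with the largest called rises in the p38α/γ KO, the 2 called falls and Ndufs1, with 1 point per library and the mean ± SD of 3 libraries beside them. The p38α/γ KO libraries are above the controls for the 9 and below them for Ndufaf4 and Ndufaf5, and the groups overlap for Ndufs1.

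Of the 8 assembly factors, limma called 0 higher and 2 lower (25%) in the p38α/γ KO, where 11.2% and 14.4% of all genes were. These 2 were the factors with an unadjusted p under 0.05. Ndufaf4, which acts on the quinone module (chr4:24898083-24905001, GRCm38), measured 30.9, 25.5 and 29.1 in the p38α/γ KO, 36.1, 34.1 and 43.0 in the p38α KO and 43.7, 38.8 and 39.9 in the controls. All p38α/γ KO libraries were below all others (log2 −0.51, SE 0.11, adjusted p = 0.0138). Ndufaf5, which hydroxylates an arginine of the Ndufs7 protein, measured 26.8, 23.2 and 24.8 in the p38α/γ KO, 26.0, 28.6 and 28.9 in the p38α KO and 36.1, 30.0 and 32.1 in the controls (log2 −0.38, SE 0.10, adjusted p = 0.0239). The controls were above every knockout library for Ndufaf5.

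The partners of these factors had other values. Ndufaf3, which works with Ndufaf4, measured 12.5, 16.5 and 16.8 in the p38α/γ KO, 19.4, 12.8 and 11.3 in the p38α KO and 12.1, 9.66 and 11.6 in the controls (log2 0.42, adjusted p = 0.131). Ndufaf8, the partner of Ndufaf5, measured 12.1, 14.4 and 13.7 in the p38α/γ KO, 16.4, 12.5 and 10.8 in the p38α KO and 11.3, 11.0 and 10.6 in the controls (log2 0.27, adjusted p = 0.175). The p38α/γ KO libraries lay above the controls for both, without passing the test. Ndufaf7, which methylates an arginine of a core subunit, measured 18.7, 17.6 and 18.0 in the p38α/γ KO, 17.1, 19.3 and 16.6 in the p38α KO and 17.4, 15.9 and 16.7 in the controls (adjusted p = 0.356). Ndufaf1, a factor for the membrane arm intermediate, measured 42.7, 38.5 and 44.3 in the p38α/γ KO, 51.3, 43.8 and 38.1 in the p38α KO and 45.3, 33.2 and 38.4 in the controls (adjusted p = 0.572). For Ndufaf7 each p38α/γ KO library was above each control without passing, and for Ndufaf1 the groups overlapped. Ndufaf6, which is needed early in assembly, measured 15.3, 12.8 and 13.5 in the p38α/γ KO, 14.5, 17.9 and 19.0 in the p38α KO and 16.4, 14.7 and 16.4 in the controls (log2 −0.18, adjusted p = 0.278).

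Of the related pairs, Ndufaf2 holds the place of its paralogue Ndufa12 during assembly. Ndufa12 measured 168, 181 and 197 in the p38α/γ KO, 193, 172 and 169 in the p38α KO and 174, 154 and 172 in the controls, and Ndufaf2 measured 8.67, 9.80 and 8.83 in the p38α/γ KO, 12.2, 6.81 and 6.31 in the p38α KO and 11.1, 8.79 and 9.91 in the controls. Neither passed in the p38α/γ KO (adjusted p = 0.322 and 0.707), and within the p38α KO Ndufaf2 was highest in library 1 and lowest in library 3. Exons of another gene overlap 65.6% of the exon bases of Ndufaf2. Ndufa4, once assigned to complex I and now counted with complex IV, measured 449.6, 487 and 529 in the p38α/γ KO, 501, 412 and 418 in the p38α KO and 416, 359 and 398 in the controls (log2 0.32, adjusted p = 0.0554). Ndufa4l2, its hypoxia-induced paralogue, measured 9.37, 9.66 and 9.77 in the p38α/γ KO, 13.9, 8.92 and 8.59 in the p38α KO and 9.74, 9.85 and 8.52 in the controls (log2 0.03, adjusted p = 0.89). Ndufa4 was above all controls in the p38α/γ KO without passing, and Ndufa4l2 stood at control level except in p38α KO 1.

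The number of calls in the p38α/γ KO changed with the libraries in the fit, both for complex I genes and for all genes. Without p38α/γ KO 1, 2 and 3 the number higher was 12, 0 and 0, where 9.96%, 2.58% and 3.37% of all genes were higher. Without control 1, 2 and 3 it was 2, 0 and 1, where 3.40%, 5.45% and 3.58% of all genes were. Without p38α KO 1, 2 and 3 it was 28, 9 and 16, where 19.4%, 8.97% and 14.7% of all genes were. The number lower was 0 without control 1 or p38α/γ KO 2, 1 without control 3 or p38α/γ KO 3, and 2 in the other fits that left out a library. The median log2 difference was between 0.21 and 0.34 in these 9 fits. With the label number as a block, 4 genes were called higher, Ndufa2, Ndufa5 and Ndufb3 among them, Ndufaf4 and Ndufaf5 were lower, and the other 7 genes had adjusted p from 0.051 (Ndufa1) to 0.076 (Ndufs7). The 8.70% of complex I genes higher under this block over 9 libraries was near the 7.83% of all genes, so the excess was not present there. With the block in the 6 libraries of the comparison, added after seeing the data, 25 genes were higher (54.3%), against 20.5% of all genes. The excess over the background under the block thus depended on the libraries in the fit.

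In the p38α KO, limma called 0 of 46 complex I genes in either direction, where 7.32% of all tested genes were higher and 10.4% lower. An unadjusted p under 0.05 was found for 10 genes, where 34% of all genes had one. The difference was positive for 43 of 46, where 51% of all genes were positive, with a median of 0.23 against 0.01 over all genes tested, and 15 genes lay above the controls in all 3 libraries and 1 below, against 17.6% and 21.1% of all genes. Ndufa5 was at log2 0.47 (adjusted p = 0.0626). The largest differences were those of Ndufb7 (log2 0.55, SE 0.19) and Ndufb3 (log2 0.51, SE 0.17). Ndufaf5 was the gene below the controls (log2 −0.22, adjusted p = 0.14), and Ndufaf4 was at log2 −0.12. Both knockouts were set against the same 3 controls, so their differences from control are not independent.

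**Figure D3:**
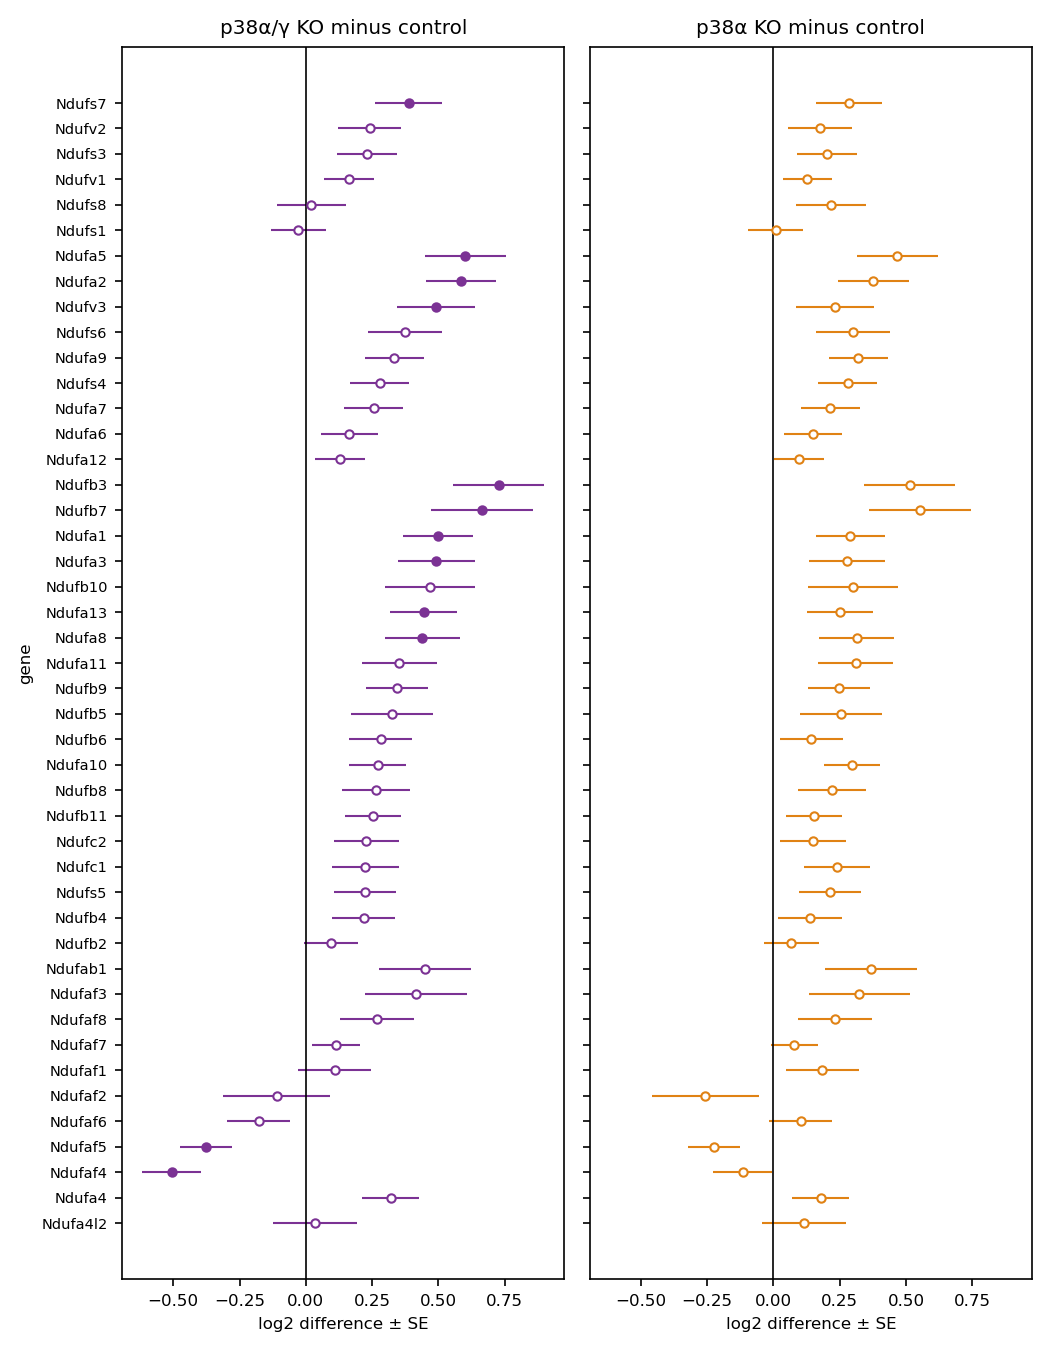
Log2 difference from control ± SE for 45 complex I genes in the p38α/γ KO (left) and the p38α KO (right), 3 libraries per group, in the same gene order. Filled points passed an adjusted p of 0.05, which 12 of the genes shown did in the p38α/γ KO and 0 in the p38α KO.

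The p38α KO libraries were spread widely. The median difference of the 46 genes from the control mean was 0.45, 0.15 and 0.06 in p38α KO 1, 2 and 3. It was 0.14, 0.30 and 0.40 in the p38α/γ KO libraries and 0.09, −0.13 and 0.05 in the controls. The summed complex I value was 0.994 ± 0.0768% of the library total in the p38α/γ KO, 0.948 ± 0.177% in the p38α KO and 0.689 ± 0.0311% in the controls (SD of 3 libraries). The sum itself was 9459 ± 874 in the p38α/γ KO, 9007 ± 1156 in the p38α KO and 7601 ± 607 in the controls, and the library totals were 933251 to 975973 in the p38α/γ KO, 896829 to 992509 in the p38α KO and 1057630 to 1132170 in the controls. The share thus differed more than the sum, since the knockout totals were lower. Leaving out p38α KO 3 gave 8 genes higher in the p38α KO, where 11.4% of all genes were higher. Leaving out p38α KO 1 gave 0 higher and 1 lower, where 7.16% and 10.7% of all genes were. The 10 most abundant genes took 22.2 ± 0.752% of the total in the p38α/γ KO, 23.5 ± 1.96% in the p38α KO and 26.4 ± 0.528% in the controls.

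Set against each other, the p38α KO and the p38α/γ KO gave 0 called complex I genes, and limma gave an unadjusted p under 0.05 for 2, Ndufaf4 and Ndufaf6, where 12% of all genes had one. Over all tested genes 0.122% were higher in the p38α KO and 0.32% lower. The median was −0.07, with 10 of 46 differences positive, where 48.7% of all genes were. The difference of Ndufaf4 was log2 0.39 (95% interval 0.14 to 0.64), which did not pass (adjusted p = 0.196). It was the gene of the 46 whose p38α KO libraries all lay above the p38α/γ KO, as 6.73% of all tested genes did, and for 0 they all lay below, as for 7.58%. The interval of the difference was −0.60 to 0.17 for Ndufb3, −0.54 to 0.32 for Ndufb7 and −0.07 to 0.37 for Ndufaf5. A rise called in the p38α/γ KO and not in the p38α KO was therefore not shown to differ between them. Without p38α KO 1 the counts were 2 higher and 4 lower, where 7.71% and 6.54% of all genes were.

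Transcript length moved with these differences. Among all other tested genes, 21.8% of those with a principal transcript of up to 1000 bases were higher in the p38α/γ KO, against 17.1% of those over 1000 and up to 2000 bases, 10.1% of those over 2000 and up to 4000 bases and 6.13% of those over 4000 bases. Complex I transcripts are short, and 24 of the 46 were in the shortest class, of which 8 were higher, with 3 of 17 in the next class and 0 of 4 in the class up to 4000 bases. The median difference was 0.33 for the 24 and 0.24 for the 977 other genes of that class. Across genes, which are not independent replicates, Spearman's rho of length and difference was −0.35 over the 46 and −0.28 over 13124 genes. With the length trend over all genes removed, 6 complex I genes were higher (13.0%) and 2 lower (4.35%), where 10.2% and 13.2% of all genes were, the median was 0.09, and Ndufa2, Ndufa5, Ndufa13, Ndufb3 and Ndufb7 were among the 6. With the replicate block as well, Ndufa2 and Ndufb3 were higher (4.35%) and Ndufaf4 and Ndufaf5 lower (4.35%), where 7.59% and 9.42% of all genes were. In the p38α KO the shortest class had a median of 0.24 in complex I genes and 0.16 in other genes. Any other part of transcript length in the result was not tested.

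**Figure D4:**
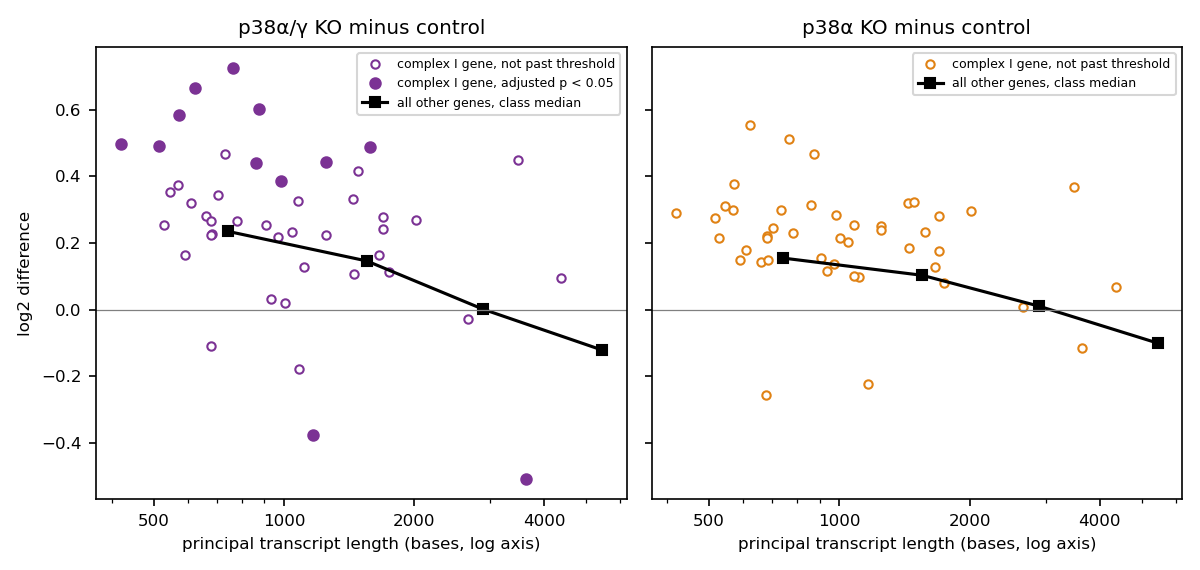
Log2 difference from control against principal transcript length (log axis) for 45 complex I genes, in the p38α/γ KO (left) and the p38α KO (right), with the median of all other tested genes in 4 length classes (black squares, at the class median length). The class medians for the p38α/γ KO go down from 0.24 to −0.12 with length, and Ndufaf4 lies below all of them.

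Levels were compared per length, as the control value per kilobase of the union of exons. Ndufb9 was highest at 361 ± 30.0, and Ndufa4 was at 283 ± 21.2 and Ndufb11 at 236 ± 12.9 (SD of 3 libraries). The accessory subunits of the membrane arm had a median of 133, the core subunits a median of 125, the accessory subunits of the matrix arm a median of 106, and the assembly factors a median of 11.6. Every assembly factor was below every core subunit. Ndufaf2 was lowest at 3.33 ± 0.385, followed by Ndufaf7 at 4.75 ± 0.220 and Ndufaf3 at 6.14 ± 0.722. Ndufb2 at 20.3 ± 1.34, Ndufb4 at 22.7 ± 2.20 and Ndufb7 at 23.6 ± 1.60 were neighbours that differed by about their spread. The order depended on the length used. With the principal transcript, a length chosen after seeing the data, Ndufa4 was highest at 641 ± 48.0, Ndufaf3 lowest at 7.49 ± 0.881, and Ndufb7 was at 171 ± 11.6. The medians were then 213 for the core subunits, 174 for the membrane arm, 168 for the matrix arm and 14.3 for the assembly factors.

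Other genes of the same machinery gave the following counts. All tested genes had 11.2% higher and 14.4% lower in the p38α/γ KO, and 7.32% and 10.4% in the p38α KO. Nuclear subunits of complexes II to V had 15 of 44 higher (34.1%) and 0 lower in the p38α/γ KO (median 0.29). In the p38α KO, 2 of 44 were higher (4.55%, median 0.25). Mitochondrial ribosomal proteins had 11 of 78 higher (14.1%) in the p38α/γ KO (median 0.16) and 9 of 78 (11.5%) in the p38α KO (median 0.18). None was lower in either, and the shares higher were not far above those of all genes. Of the 7 mitochondrially encoded complex I subunits, 3 were lower (42.9%) in the p38α/γ KO (median −0.30) and 1 (14.3%) in the p38α KO (median −0.21). mt-Nd5 measured 3573, 2175 and 2615 in the p38α/γ KO, 3110.3, 5116 and 4263 in the p38α KO and 7338, 6303 and 6230.1 in the controls (log2 −1.27, adjusted p = 0.0063 for the p38α/γ KO). mt-Nd4l measured 309, 180.2 and 204 in the p38α/γ KO, 220.2, 417 and 279 in the p38α KO and 625, 569 and 564 in the controls (log2 −1.38, adjusted p = 0.00644). Nuclear and mitochondrial subunits of the same enzyme had medians of opposite sign in both knockouts. Of 13 other assembly factors in the table, Tmem126a was lower in the p38α/γ KO and Dmac2 higher in the p38α KO.

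Among 10 regulators of mitochondrial genes, 2 were higher (20%) and 3 lower (30%) in the p38α/γ KO, where 11.2% and 14.4% of all genes were. In the p38α KO 1 was higher (10%) and 1 lower (10%), near the 7.32% and 10.4% of all genes. Ppargc1a, the coactivator PGC-1α, measured 41.1, 37.7 and 41.3 in the p38α/γ KO, 41.1, 52.2 and 41.5 in the p38α KO and 28.7, 30.4 and 23.7 in the controls and was higher in both knockouts (log2 0.53, adjusted p = 0.0163 in the p38α/γ KO and log2 0.68, adjusted p = 0.00731 in the p38α KO). Yy1, a transcription factor that works with it, measured 35.7, 30.8 and 31.7 in the p38α/γ KO, 29.9, 39.0 and 39.3 in the p38α KO and 44.7, 49.7 and 48.2 in the controls and was lower in both (log2 −0.53 and −0.40). Ppargc1b was also higher in the p38α/γ KO, and Gabpa and Pprc1 were lower there. Nrf1 and Esrra did not pass in the p38α/γ KO (adjusted p = 0.267 and 0.0725).

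Markers of other cells and of fibre types were also examined. For comparison, 11.2% of all tested genes were higher and 14.4% lower in the p38α/γ KO, and 7.32% and 10.4% in the p38α KO. Of 12 macrophage genes, 11 were higher in the p38α/γ KO and 9 in the p38α KO, with summed values of 315 to 516 in the p38α/γ KO, 242 to 536 in the p38α KO and 126 to 171 in the controls. Fcgr1 was the lowest of them, with 5 to 56 inferred reads per library, and none of the 12 had 0 inferred reads. Fibro-adipogenic progenitor genes had 4 of 7 higher in the p38α/γ KO and 1 of 7 in the p38α KO, with summed values of 1388 to 1871 in the p38α/γ KO, 901 to 1890 in the p38α KO and 861 to 1095 in the controls. Of 10 slow and oxidative fibre genes, 1 (Casq2) was higher in each knockout (10%), near the share of all genes. Differences were positive for 9 of 10 in the p38α/γ KO (median 0.47) and for 5 of 10 in the p38α KO (median 0.01). By library, the list median was 0.80, 0.25 and −1.12 in p38α KO 1, 2 and 3. That is the order of the complex I medians in the same libraries. In the p38α/γ KO it was 0.34, 0.40 and 0.76, again in the order of the complex I medians. In the controls it was 0.21, 0.35 and −0.37, in another order. An erythroid list also followed the complex I order in the p38α KO (0.41, −0.131 and −0.133) and the p38α/γ KO (0.06, 0.27 and 0.50). The macrophage list (1.65, 1.18 and 0.64) and the fibro-adipogenic progenitor list (0.92, 0.29 and −0.08) did so in the p38α KO only. The order was therefore not particular to the slow and oxidative list. Summed slow and oxidative values ran from 8401 to 10001 in the p38α/γ KO, 3138 to 11185 in the p38α KO and 5595 to 7117 in the controls. Of 9 fast fibre genes, 1 was lower in the p38α/γ KO (Actn3) and 1 in the p38α KO (Tnnc2). That is 11.1% in each, near the share of all genes, with 8 negative differences and medians of −0.31 and −0.40. Of 6 general skeletal muscle fibre genes, limma called 0 in the p38α/γ KO, where 4 had an unadjusted p under 0.05, and 1 lower in the p38α KO (Acta1). All 6 differences were negative in both knockouts, with summed values of 112625 to 114418 in the p38α/γ KO, 86888 to 139711 in the p38α KO and 156962 to 169406 in the controls. The part of these cells and fibres in the complex I result was not tested.

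**Figure D5:**
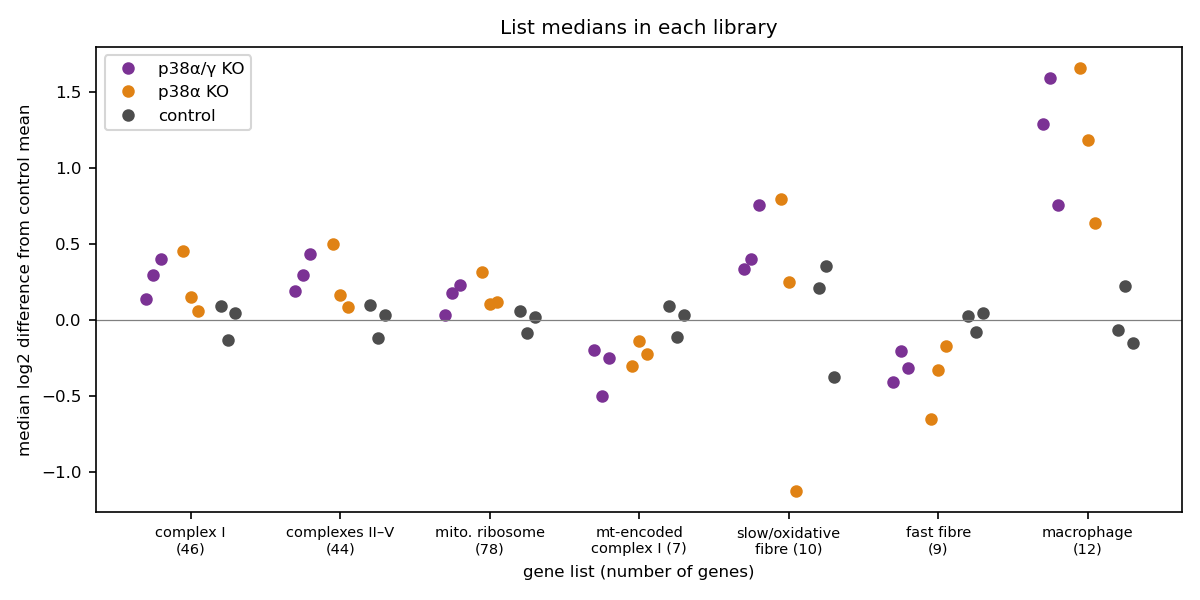
Median log2 difference from the control mean for 7 gene lists, with 1 point per library, p38α/γ KO, p38α KO and control from left to right in each list. Complex I medians run from 0.14 to 0.40 in the p38α/γ KO, 0.06 to 0.45 in the p38α KO and −0.13 to 0.09 in the controls, and the slow and oxidative list spans −1.12 to 0.80 in the p38α KO.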

How the data were processed

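The authors deposited a table of normalised signal, 13179 genes by 9 libraries, and how they scaled it is not given in the sources used here. Per the labels' protocols, polyadenylated RNA (100 ng, RIN above 8) was made into stranded libraries and sequenced as single reads of 51 bases. Tools named in the submitters' processing notes were RSEM 1.3.1, cutadapt, limma and CASAVA 1.8, with the GRCm38 genome. Each deposited signal value was a whole number plus 0.5, within 0.001, over a factor per library. This gave the inferred depths, but the values were not tested as counts.

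The test used limma 3.58.1 (R 4.3.3; empirical Bayes with trend; 9 libraries; 3 comparisons; Benjamini-Hochberg threshold 0.05). It ran on log2(value + 1) of the 13137 genes that reached 1 in 3 or more libraries. Printed p-values are limma adjusted p unless called unadjusted. The code was tested on simulated data. Members, lists and motifs were chosen with earlier results of these data known. Values in every library are given for up to 12 called genes by lowest adjusted p, the core subunits, the assembly factors and the related pairs. The results of 1 gene are not reported here and it is left out of the plots, while counts and medians include it. GENCODE M21 held 13166 of the identifiers.

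Same-numbered p38α/γ KO and control libraries deviated together (correlations 0.111, 0.124 and 0.148; limit 0.1). The labels do not state this pairing, so blocked values are given only where they change a result. Alternatives changed the filter, pseudocount, scaling, spread estimate, libraries, block and transcript length. The length trend, the principal transcript length and the block within 6 libraries were added after seeing the data. Array weights were planned, and their estimate gene by gene was chosen when the default did not converge.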

Additional observations from a re-analysis of the deposited data

How the results depend on the processing

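The direction of the complex I median was positive for both knockouts against control in every fit run, from 0.09 to 0.37 for the p38α/γ KO and 0.09 to 0.36 for the p38α KO, and between the knockouts from −0.19 to 0.01. Among 3174 combinations of gene, comparison and setting, 2956 kept their side of the threshold, 135 gained a call and 83 lost one. The sign changed in 127 of them, for 29 genes, none with a call before or after. With the length trend removed, 34 of 46 differences were positive in the p38α/γ KO and 36 in the p38α KO, and between the knockouts 28 were positive without p38α KO 3. The number of genes called did not hold. In the p38α/γ KO the number higher was 24 with quantile normalisation, 32 with array weights and 27 with the 6 libraries of the comparison, where 10.3%, 24.1% and 19.9% of all genes were higher. It was 4 with the replicate block (all genes 7.83%), 25 with the block in 6 libraries (20.5%), 6 with the length trend removed (median 0.0876) and 2 with the length trend removed and the block (median 0.0876). Leaving out a library gave 0 to 28 higher and 0 to 2 lower. In the p38α KO the number higher was 1 with a filter at 5, 1 with median-of-ratios scaling, 10 with quantile normalisation and 7 with array weights (1 lower), where 7.47%, 7.38%, 6.78% and 18.5% (20.4% lower) of all genes were, and leaving out a library gave 0 to 8 higher and 0 to 1 lower. Between the knockouts array weights gave 2 higher and 10 lower, where 12.4% and 11.9% of all genes were, and leaving out a library gave 0 to 2 higher and 0 to 4 lower. The cause was not tested. Same-numbered libraries had correlations of −0.0858, −0.0866 and 0.0951 for the p38α KO and the controls. For the knockouts these were −0.331, −0.228 and 0.0885, and none passed the limit of 0.1. Unlike-numbered libraries reached 0.175 (p38α KO 2 and control 1) and 0.351 (p38α KO 2 and p38α/γ KO 1). Whether same-numbered libraries share more than a number was not tested. For the p38α KO against control and against the p38α/γ KO, the replicate block left the counts at 0. Levels per kilobase moved by more than their spread for 38 of 46 genes with principal in place of union length, and for 37 with the longest transcript. The planned count tests (edgeR and DESeq2) and TMM scaling were not run, because the values could not be shown to be counts. With 3 libraries per group, an exact permutation test of a single gene cannot go below 0.1.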

Other observations

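Several genes related to complex I lie outside the naming rule. Gm4943, which GENCODE M21 names Ndufa11b and lists as a processed pseudogene, measured 11.3, 11.6 and 13.3 in the p38α/γ KO, 13.5, 10.9 and 10.5 in the p38α KO and 9.42, 7.76 and 7.91 in the controls. It was higher in both knockouts (log2 0.48, adjusted p by limma 0.023 for p38α/γ KO, and log2 0.42, adjusted p = 0.0433 in the p38α KO). Gm3244, which GENCODE names Ndufb4c, measured 117, 112 and 131 in the p38α/γ KO, 121, 112 and 118 in the p38α KO and 132, 109 and 117 in the controls, close to equal in all groups, and 36.9% of the 51-base windows of Ndufb4 occur in other genes. Gm4459, a processed pseudogene that shares windows with Ndufab1, measured 87.9, 109.9 and 119 in the p38α/γ KO, 128, 87.9 and 83.0 in the p38α KO and 79.9, 72.9 and 78.3 in the controls (adjusted p = 0.0744 in the p38α/γ KO).

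BC002163, a processed pseudogene that shares windows with Ndufs5, measured 4.89, 54.8 and 30.4 in the p38α/γ KO, 11.3, 6.49 and 6.03 in the p38α KO and 3.42, 5.39 and 8.82 in the controls. It was uneven within the p38α/γ KO, and the difference did not pass (log2 1.74, limma adjusted p = 0.0853). Ndufab1-ps measured 24.3, 10.01 and 23.6 in the p38α/γ KO, 28.0, 21.6 and 15.5 in the p38α KO and 25.3, 13.6 and 17.0 in the controls, with overlap between all groups. A row with no symbol, listed by GENCODE as the non-coding Ndufb1-ps, measured 101, 122 and 131 in the p38α/γ KO, 121, 97.5 and 104 in the p38α KO and 108, 97.3 and 109 in the controls, and did not pass (adjusted p = 0.328 in the p38α/γ KO). Of the 46 complex I genes, 18 share at least 1 window of 51 bases with another gene and 6 share over 10% of them, and how the authors assigned such reads is not given in the sources used here.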
